A study of Mus musculus with 4 samples.

Results

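The genes described here encode the proteins of the cytosolic ribosome in mouse embryonic stem cells (ESCs). They were chosen by symbol: every gene probe whose accession maps to Rpl or Rps with a number, to Rplp0, Rplp1 or Rplp2, or to Rpsa was taken, and Rpl10l, the Rps6k kinases and symbols ending in -ps were left out. This gave 83 genes, measured by 119 probes, of 32301 genes and transcripts with a probe, 18217 of them with a symbol. The members comprise 43 genes of the large subunit, 30 of the small subunit, the 3 genes of the P stalk and 7 paralogues. One of the paralogues, Rps4l, carries no -ps in its symbol but is a transcribed pseudogene in RefSeq.

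RNA of 4 ESC lines was labelled with Cy3 and hybridised to Agilent one-colour arrays, with 1 array per line. The 2 wild-type (WT) lines carry both intact copies of Dppa4 (ECAT15-1, 15-1+/+) and of Dppa2 (ECAT15-2, 15-2+/+). The 2 knockout (KO) lines lack Dppa2 (15-2-/-) and have Dppa4 in its conditionally targeted form on both copies (15-1CT/CT), so genotype here means both changes together. All lines were derived from blastocysts of double-heterozygous intercrosses on a mixed 129Sv and C57/BL6 background that had also been crossed to Cre or FLPe transgenic mice. WT 1 and KO 1 come from mother 1046, WT 2 and KO 2 from mother 875, and every line was derived separately. Cultures were kept for 3 days on gelatin in medium with 15% FCS (fetal calf serum) and the cytokine LIF.

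On each array 68.4% to 70.3% of 41174 gene probes were well above background and no spot was saturated. Dppa2 itself had a log2 signal of 12.09 and 12.03 in the WT lines and 7.05 and 7.12 in the KO lines (limma adjusted p = 0.0089, or 0.079 with the mother as a block). Whether that probe lies inside the deleted sequence was not analysed here. ESC markers were present: 8 of the 10 listed had a tested probe and all 8 were above background on all 4 arrays, with a summed log2 signal of 18.86 and 18.83 in the WT lines and 19.20 and 19.43 in the KO lines. The summed signal of 10 trophoblast markers was log2 18.14 and 18.53 in the WT lines against 16.38 and 15.90 in the KO lines. Of these markers 9 were above background on all 4 arrays. Krt8 alone read 17.03 and 17.46 against 14.77 and 14.22, while the median level of the 10 was 8.4. Their median difference was -1.65, and 2 had a positive difference, among them Tfap2c at 0.45. The summed signal of 10 primitive endoderm markers was 14.23 and 14.55 against 12.45 and 12.28, with 8 above background on all arrays. Apoa1 and Ttr were not above background on any array. The primitive endoderm sum follows its brightest marker, Lrp2, at a difference of -2.40; of the 8 tested markers 4 had a positive difference, among them Sox17 at 1.42, and their median was 0.048. For 10 fibroblast markers, 9 above background on all arrays, the sums were 15.20 and 13.35 against 14.22 and 14.75, and for 5 blood markers 11.46 and 10.68 against 9.73 and 10.48, with 3 above background on all arrays. The fibroblast markers had a median difference of -0.73, with 3 of 10 positive. All 8 ESC markers had a positive difference, with a median of 0.79, and none passed in limma. Fbn1 (-2.82, limma adjusted p = 0.0253), Lrp2 (0.0313), Dab2 (-1.75, 0.0381) and Krt8 (0.0497) fell, as did 1.67% of all genes. With the mother as a block no gene passed. The part of these cell types in the values below was not tested.

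The cytosolic ribosome is built from ribosomal RNA and a large set of proteins, most of them encoded by a single gene that every dividing cell expresses strongly. Ribosomal protein mRNAs of mammals typically begin with a pyrimidine-rich stretch, the 5′ terminal oligopyrimidine (TOP) tract, through which the mTOR pathway adjusts their translation as a group. A few members have paralogues with a narrower expression, such as Rpl39l, known from male germ cells, and Rpl3l, known from muscle.

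Of the 83 members, 63 have a start-site window in RefSeq (GRCm38.p6; 250 bases before to 50 after the annotated start). The 5 windows printed here cover the last 100 bases before the start and the first 30 after it. They were chosen to set Rpl39l, the only member called between the genotypes, beside Rpl39, which it resembles, and beside 3 members of the P stalk, the large and the small subunit. Capitals mark a run of at least 8 pyrimidines near the start and the motif CCGGAAG, the core bound by ETS factors, on either strand. The windows of Rplp2 and Rpl35 also hold CCGGAAG, in the part that is not printed. Each window set beside that of Rpl39l thus holds both such a run and CCGGAAG. Among the 63 members 44.4% hold such a run and 41.3% hold CCGGAAG, so these windows do not stand for the members in general.
Rpl39l, chr16:10170128-10170257, plus strand: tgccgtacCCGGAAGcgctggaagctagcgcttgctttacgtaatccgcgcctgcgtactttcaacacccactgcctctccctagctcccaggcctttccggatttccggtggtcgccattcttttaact
Rpl39, chrX:37085193-37085322, minus strand: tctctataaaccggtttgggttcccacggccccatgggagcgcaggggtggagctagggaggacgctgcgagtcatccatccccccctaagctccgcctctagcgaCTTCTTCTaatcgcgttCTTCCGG
Rplp2, chr7:141447551-141447680, plus strand: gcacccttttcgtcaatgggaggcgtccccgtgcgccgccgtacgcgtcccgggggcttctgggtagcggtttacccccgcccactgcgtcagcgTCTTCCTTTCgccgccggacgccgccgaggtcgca
Rpl35, chr2:39005102-39005231, minus strand: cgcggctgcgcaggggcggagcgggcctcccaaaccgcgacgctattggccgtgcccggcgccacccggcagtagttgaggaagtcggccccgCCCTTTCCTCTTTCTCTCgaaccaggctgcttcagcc
Rps6, chr4:86857338-86857467, minus strand: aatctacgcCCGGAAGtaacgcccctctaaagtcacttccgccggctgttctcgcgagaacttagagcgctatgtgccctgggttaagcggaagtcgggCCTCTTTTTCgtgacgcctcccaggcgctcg

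A pyrimidine run of at least 8 bases, on the sense strand and between 10 bases before and 30 after the annotated start, was found in 28 of the 63 members (44.4%) and in 16.4% of the 27025 genes in the RefSeq table. CCGGAAG, searched on both strands of the 300-base window, was found in 26 members (41.3%) and in 9.93% of all genes. GGGCGG, the GC box, was found on either strand in 39 members (61.9%) against 38.2% of all genes. AAGATGG, the YY1 core, was found in 10 members (15.9%, against 7.28%), and TATAAA in 7 (11.1%, against 15.7%), again on either strand. CCGGAAG can share letters with AAGATGG and, read on the other strand, with a pyrimidine run. The windows of the members held a median of 22 CpG dinucleotides, those of all genes 8; the Rpl39l and Rpl39 windows each held 17. In the Rpl39l window the longest pyrimidine run near the start is 7 bases, in that of Rpl39 it is 8, and in that of Rpl35 it is 18. Annotated starts can be off by some bases, so a match describes the window and not the RNA's first base.

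The member genes were bright, and their signal varied between the lines about as much as that of other bright genes. All 83 passed the filter on dim probes, and 118 of their 119 probes were well above background on all 4 arrays. The mean log2 signal over the lines lay between 5.75 and 18.67 with a median of 17.60 (all genes tested, 9.12), and 71 members lay above 16; probes differ in how well they bind, so these levels do not rank the genes. From the lowest to the highest of the 4 lines, the median member spanned 0.28 on the log2 scale, against 0.61 for the median of all 21639 genes and transcripts tested. At a mean log2 signal of at least 16 the median span was 0.28 for the 71 members and 0.30 for 413 other genes. The span was smallest for Rps6, the small-subunit protein phosphorylated downstream of mTOR, at 0.10, and was above 0.5 for 5 members.

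The level of the group differed slightly from line to line, in a way that depended on the scaling. With each array scaled to its 75th percentile, the median member read 17.45 in WT 1, 17.56 in WT 2, 17.62 in KO 1 and 17.76 in KO 2. KO 2 was the highest of the 4 lines for 78 of 83 members. The lowest line was WT 1 for 49 members, WT 2 for 27, KO 1 for 6 and KO 2 for Rpl31. The median difference was 0.017 between WT 2 and WT 1 and 0.15 between KO 2 and KO 1, and KO minus WT was 0.10 within mother 1046 and 0.22 within mother 875 (log2, 1 line per arm, no test).

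**Figure D1:**
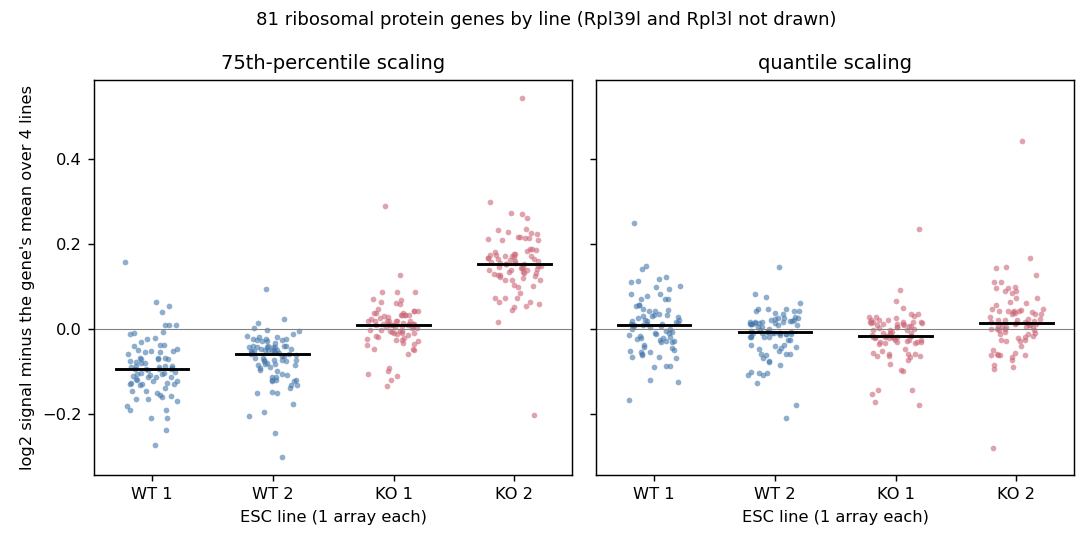
Log2 signal of 81 ribosomal protein genes in each ESC line, minus the gene's own mean over the 4 lines, under 75th-percentile scaling (left) and quantile scaling (right). Each point is a gene and each bar the median of the line; on the left the points of KO 2 lie highest, on the right the 4 medians lie close to 0. Rpl39l and Rpl3l, whose lines differ by 5.05 and 3.38, are not drawn.

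Between the genotypes, 80 of 83 members had a positive KO minus WT difference, with a median of 0.16 on the log2 scale and quartiles of 0.12 and 0.20. The median of all genes tested was 0.10, with 59.2% positive. Without KO replicate 2 the members' median was 0.092 and that of all genes 0.083. None of the 83 rose and 1 fell, Rpl39l; 82 did not pass the test (limma, adjusted over all genes), where 0.176% of all genes rose and 1.67% fell. Before adjustment, 0 members were higher and 1 lower in limma at a p under 0.05, against 11.1% and 12.4% of all genes. This count depended on the prior: with an intensity trend and a robust prior in limma, 10 members were higher at an unadjusted p under 0.05, and 1 was lower. Of all 21639 genes, 2942 were higher and 2724 lower in that setting. The KO lines lay above both WT lines without overlap for 68 members (81.9%) and below them for 1, whereas this held for 37.7% and 24.5% of all genes.

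The positive direction depended on the scaling. With the arrays made equal in all quantiles the median member difference was -0.0055, with 38 members positive and 45 negative, and with the deposited values, whose medians are equal on all arrays, it was -0.0076. Under quantile scaling the groups failed to overlap for 10 members with KO higher and 15 with KO lower, against 38.0% and 24.7% of all genes. The median span over the 4 lines was then 0.12, and 71 of 83 members differed by less than 0.1 between the genotypes. With each array centred on its median the difference was 0.33, where that of all genes was 0.26. Under 75th-percentile scaling the other genes of like signal had differences of similar size: 413 non-members with a mean log2 signal of at least 16 had a median of 0.18, with 90.8% positive, and the 71 members in that range had 0.16. In the range below 8, 8807 non-members had a median of 0.028.

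**Figure D2:**
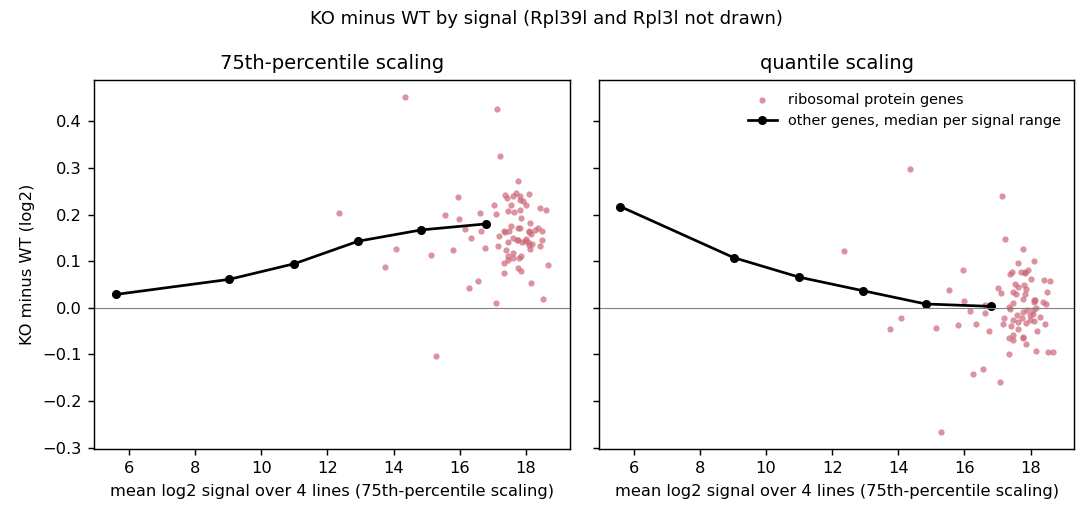
KO minus WT (log2) against the mean log2 signal over the 4 lines, for 81 ribosomal protein genes (points) and as the median of all other genes per signal range (black line), under 75th-percentile scaling (left) and quantile scaling (right). On the left the line climbs from 0.028 to 0.18 with the signal and the points scatter around its bright end; on the right its bright end and the points lie near 0.

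Rpl39l, the paralogue of the large-subunit protein gene Rpl39 known from male germ cells, stood apart from the other members. On the log2 scale its signal was 11.70 in WT 1, 11.51 in WT 2, 6.65 in KO 1 and 7.79 in KO 2. Both KO lines lay far below both WT lines, and the level fell 20.9-fold. The log2 difference of -4.38 had an SE of 0.44 and a limma adjusted p of 0.0476 with 2 lines per group, and it ranked 115th by size among the falls of 21639 genes. Its second probe read 7.17 and 7.07 in the WT lines and 3.41 and 3.23 in the KO lines, with 1 of 2 KO arrays above background (difference -3.80 with an SE of 0.14; limma adjusted p = 0.0133 when every probe was tested separately). In these whole cultures, fewer cells with the transcript and less RNA per cell cannot be told apart. Rpl39 read 17.12 and 17.11 in the WT lines and 17.16 and 17.38 in the KO lines, a difference of 0.15 (SE 0.14, limma adjusted p = 0.532) that was -0.022 under quantile scaling.

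The adjusted p of Rpl39l lay close to the threshold. With the mother as a replicate block it was 0.105 in limma, and it was 0.229 without WT replicate 1, 0.241 without WT replicate 2 and 0.0654 without KO replicate 2, and it ranged from 0.0291 to 0.241 over the 13 alternatives run, in which the difference stayed between -4.95 and -3.80.

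**Figure D3:**
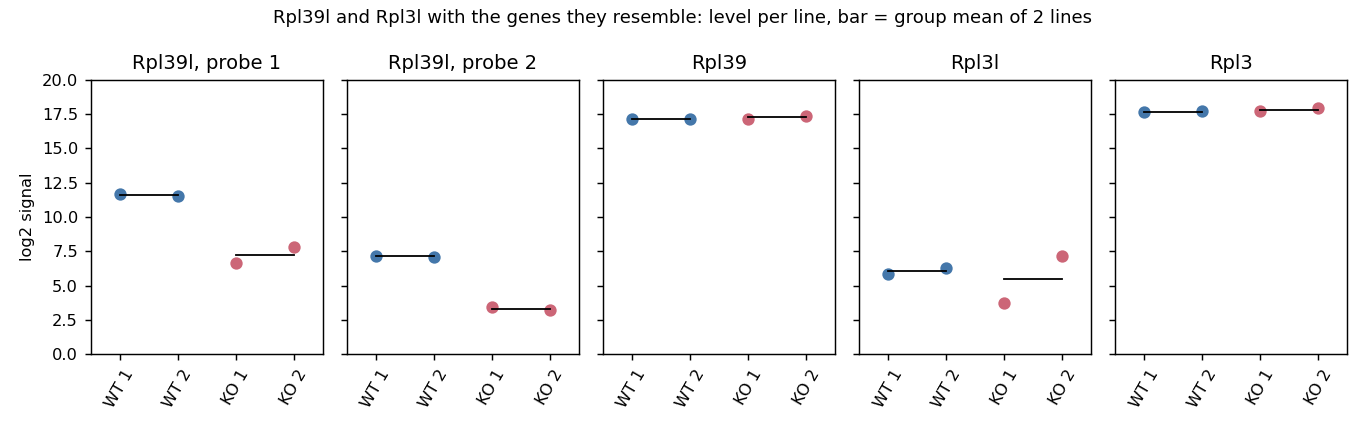
Log2 signal of both Rpl39l probes, of Rpl39, of Rpl3l and of Rpl3 in each ESC line; points are single arrays, blue for WT and red for KO, and bars are the means of 2 lines. Both Rpl39l probes are lower in both KO lines, Rpl39 and Rpl3 span 0.27 and 0.30 over the lines, and the Rpl3l values of the KO lines lie on either side of the WT lines.

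Rpl3l, the paralogue of Rpl3 known from muscle, was the other member with a wide spread. It was also the dimmest member, with a mean log2 signal of 5.75. Its span over the lines was 3.38, where 8807 other genes with a signal below 8 had a median span of 0.91. Rpl3l read 5.84 and 6.28 in the WT lines, 3.76 in KO 1 and 7.14 in KO 2. The KO lines enclosed the WT lines, and the difference of -0.61 (SE 1.26) did not pass (limma adjusted p = 0.778). With another background correction (normexp) the difference was -0.063. Rpl3 itself had a difference of 0.15 (SE 0.15), or -0.0099 under quantile scaling, with group means of 17.68 ± 0.079 and 17.83 ± 0.14 (SD, n = 2 each).

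The other 5 paralogues did not pass either. Rps27l, a p53-inducible paralogue of Rps27, read 17.11 and 17.07 in the WT lines and 17.25 and 17.21 in the KO lines, a difference of 0.13, where Rps27 had 0.14; under quantile scaling the values were -0.035 and -0.0045. Rpl22l1, the paralogue of the RNA-binding protein gene Rpl22, had a difference of 0.042 with overlapping groups, or -0.14 under quantile scaling, and Rpl22 had 0.18. Rpl36al and Rpl7l1 had differences of 0.24 and 0.13 without overlap, or 0.080 and -0.022 under quantile scaling. The pseudogene Rps4l read 17.01 and 16.83 in the WT lines and 17.26 and 17.44 in the KO lines, a difference of 0.43 (SE 0.15, limma adjusted p = 0.212), which was 0.24 under quantile scaling. Its probe is printed 10 times on each array, and the SD between those spots was 0.0268 to 0.0581 on the log2 scale. Its sequence resembles that of Rps4x, whose difference was 0.23, so the signals of the pair may mix.

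The P stalk proteins form the flexible arm that recruits translation factors to the large subunit. Rplp0, which anchors the stalk, read 18.02 and 18.03 in the WT lines and 18.11 and 18.27 in the KO lines, a difference of 0.16 (SE 0.13). Rplp1 had a difference of 0.22 (SE 0.13) and Rplp2 one of 0.16 (SE 0.13). All 3 lay higher in both KO lines under 75th-percentile scaling, as did 37.7% of all genes, and for none did the difference pass (limma adjusted p of 0.371 to 0.477). Under quantile scaling their differences shrank, with values of 0.012 for Rplp0, 0.061 for Rplp1 and 0.017 for Rplp2.

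In the large subunit, 42 of 43 members had a positive difference, with a median of 0.15 that was -0.016 with 18 positive under quantile scaling, and 0 passed in limma (0 at an unadjusted p under 0.05). Rpl5 and Rpl11, which also bind Mdm2 when ribosome assembly is disturbed, had differences of 0.17 (SE 0.14) and 0.12 (SE 0.13), or -0.021 and -0.031 under quantile scaling. Rpl38, known for its effect on the translation of Hox mRNAs, had 0.17 (SE 0.13), and the X-linked Rpl10 had 0.22 (SE 0.16), both still positive under quantile scaling. These small differences were all within 2 SE of 0. The limma SE is partly set by the spread of all genes and was at least 0.119 for every member. Differences this small would therefore lie within 2 SE even where the lines differ little. The member furthest above the others was Rpl14, which read 14.13 and 14.10 in the WT lines, 14.25 in KO 1 and 14.89 in KO 2. Its difference of 0.45 (SE 0.26, limma adjusted p = 0.358) came mostly from KO 2, at 0.79 within mother 875 and 0.12 within mother 1046. Rpl19 and Rpl12 had differences of 0.27 and 0.24, again wider within mother 875, at 0.42 and 0.40, than within mother 1046, at 0.12 and 0.087. Rpl31 spanned 0.49 over the lines, with KO 1 at 14.03 and KO 2 at 13.54 on either side of the WT lines. At the other end, Rpl27a was the one large-subunit member with a negative difference, -0.10 (SE 0.15), and Rpl7a had 0.019 (SE 0.13), or -0.095 under quantile scaling. The KO and WT lines overlapped for both genes under 75th-percentile scaling. Under quantile scaling the difference of Rpl27a was -0.27. Both genes then lay lower in the KO lines without overlap, as did 24.7% of all genes.

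In the small subunit all 30 members had a positive difference, with a median of 0.16 that was 0.00095 with 15 positive under quantile scaling, and 0 passed in limma (0 at an unadjusted p under 0.05). Rps3a1 read 17.49 and 17.66 in the WT lines and 17.73 and 17.90 in the KO lines, a difference of 0.25 (SE 0.15, limma adjusted p = 0.370) that was 0.077 under quantile scaling. Rpsa, also known as the laminin receptor, had 0.16 (SE 0.14) or -0.012 under quantile scaling. Rps19, the gene most often mutated in Diamond-Blackfan anaemia, had 0.11 (SE 0.13) or -0.043 under quantile scaling. Under 75th-percentile scaling Rps6 had the smallest difference of the subunit, 0.0093 (SE 0.12). It read 17.08 and 17.09 in the WT lines and 17.04 and 17.14 in the KO lines. Under quantile scaling its difference was -0.16, and both KO lines lay below both WT lines. Within the small subunit the KO lines lay above the WT lines without overlap for 28 of 30 genes, under 75th-percentile scaling. This held for 37.7% of all genes. Under quantile scaling it held for 10 of all 83 members, with 15 lower without overlap, against 38.0% and 24.7% of all genes.

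**Figure D4:**
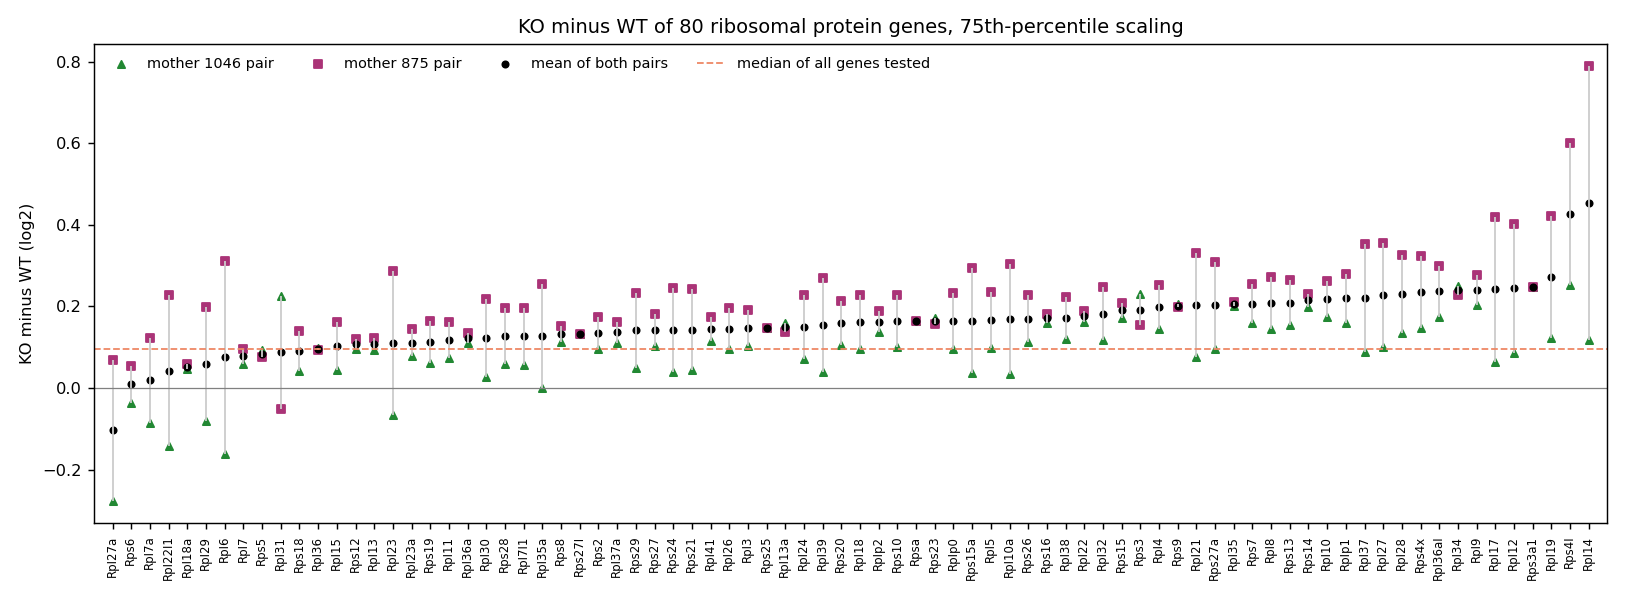
KO minus WT (log2) of 80 ribosomal protein genes under 75th-percentile scaling, ordered by the mean of both pairs (black). Triangles show the pair of mother 1046, squares the pair of mother 875, and the dashed line the median of all genes tested, 0.10; most squares lie above their triangles. Among those not drawn are Rpl39l and Rpl3l, at -4.38 and -0.61.

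Apart from Rpl39l and Rpl3l, the members formed a narrow band. The differences of these 81 genes had an SD of 0.079 around a median of 0.16. The limma SE of a single member's difference had a median of 0.14 over all 83. That SE is drawn toward the spread of all genes, so it cannot serve as a measure for the width of the band. The members' own SD between lines had a median of 0.045 in WT and 0.11 in KO. In all, 71 of 83 members lay within 0.1 of the group's median and 78 within 0.2. The differences of the pairs from mother 1046 and mother 875 correlated at 0.82 (Pearson) across the 83 genes and at 0.15 across the 81 without Rpl39l and Rpl3l, genes that share arrays and are not independent. Under 75th-percentile scaling the differences were positive in both pairs for 73 members, negative in both for 1 and opposite for 9. The share of all genes positive in both pairs was not determined. The difference over both pairs was positive for 59.2% of all genes and for 90.8% of the 413 other genes at a signal of at least 16. Under quantile scaling it was positive for 38 of the 83 members. Where a gene had several probes, as 30 did, the probes differed by a median of 0.066 in KO minus WT.

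Genes that work beside the cytosolic ribosome also had mostly positive differences under 75th-percentile scaling. The mitochondrial ribosome, a separate set of proteins that translates mitochondrial mRNAs, had 71 of 78 members with a positive difference and a median of 0.26, or 0.12 under quantile scaling. Ribosome biogenesis and RNA polymerase I genes had 58 of 60 positive and a median of 0.26, or 0.13 under quantile scaling. Translation factors had 39 of 43 positive and a median of 0.14, which turned to -0.030 under quantile scaling. No member of these lists passed the test in limma; at an unadjusted p under 0.05, 15, 8 and 1 were higher and 0 lower in each, where 11.1% of all genes were higher and 12.4% lower. The members with the smallest p were Mrpl4 at 0.60 (SE 0.13, limma adjusted p = 0.129), Rrp9, a small nucleolar RNA-binding protein gene, at 0.49 (SE 0.13, adjusted p = 0.153) and Eif3k, a subunit of initiation factor 3, at 0.43 (SE 0.13, adjusted p = 0.191); the smallest p on the negative side were those of Mrpl54 at -0.36, Taf1d at -0.047 and Eif4g2 at -0.045. Of the ribosomal components with other names, 3 of 4 listed symbols were tested and had a median of 0.11, with Rack1, a scaffold protein of the small subunit, at 0.12 (SE 0.14). Whether these lists differ from the cytosolic members was not tested.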

How the data were processed

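The deposited array files hold each spot's processed intensity from Agilent Feature Extraction (version 10.7.3.1 in the file header); the settings behind it are not given in the sources used here. The deposited series table holds log2 values on an unstated scale: each column correlated with log2 of its array's processed signal at 0.999902 to 0.999988 and all medians were 6.55. GeneSpring GX11 is named for the analysis per the labels.

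Log2 processed signals were scaled to the 75th percentile of each array over all spots but controls; spots marked as outliers were then dropped and spots of a probe averaged. Per the file headers all 4 arrays lie on 1 slide with 1 scan date, so neither separates the genotypes. Probes were named through RefSeq accessions (26690 of 41174 with 1 symbol, 14484 with none). Genes were kept where both arrays of 1 genotype or more were well above background, each by its brightest probe, and 21639 were fitted by genotype with limma 3.58.1 (R 4.3.3, Benjamini-Hochberg, threshold 0.05). The procedure was tested on simulated data. The mother, given by the labels, pairs equal numbers; across genes, line 2 minus line 1 in WT correlated at 0.19 with that in KO. The normexp alternative (offset 50) used median spot signals in place of mean signals. Other scalings, the deposited values, other filters, every probe, another prior, the mother as a block and each line left out were also run.

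Named members are those called, the 6 highest and 6 lowest differences, the 6 widest spans, 10 fixed genes, the paralogues, the members with a dim probe, and the smallest p in each direction of each related list; Rpl39, Rpl3, Rpl22, Rps27, Rps4x and Rpl35 were added after their values were seen. The members and lists were chosen with earlier results of these data known. Each line has 1 array, so p-values rest on the spread between lines, and the number of arrays limits the precision. In limma the spread of each gene is drawn toward one shared by all genes tested, and no member's SE was below 0.119. Processed pseudogenes and near-identical copies can share a probe's signal. One named member and one marker are not reported here.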

Additional observations from a re-analysis of the deposited data

Results flagged for a closer look

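Under 75th-percentile scaling, KO minus WT had opposite signs within the pairs of the 2 mothers for 6 of the named members. With 1 line per arm the difference between the pairs was not tested. On the log2 scale the difference within mother 875 minus that within mother 1046 was 2.93 for Rpl3l (0.85 and -2.08), 0.369 for Rpl22l1 (0.23 and -0.14), 0.347 for Rpl27a (0.070 and -0.28), 0.209 for Rpl7a (0.12 and -0.086) and 0.0901 for Rps6 (0.054 and -0.036). It was -0.277 for Rpl31 (-0.051 and 0.23), the one of the 6 with the higher difference in mother 1046. These signs depended on the scaling. Under quantile scaling both pairs were negative for Rpl27a (-0.11 and -0.42), Rpl7a (-0.043 and -0.15) and Rps6 (-0.14 and -0.18). They stayed opposite for Rpl3l, Rpl22l1 and Rpl31, and turned opposite for other named members, such as Rpl14 (0.62 and -0.023). Groups of 2 lines are too small for a search for single outlying samples.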

How the results depend on the processing

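The count of members called was 1 (Rpl39l). It was 0 under quantile scaling (Rpl39l at limma adjusted p = 0.0538), the deposited values (0.0536), median centring (0.0511), no filter on dim probes (0.0598), probes above background on all 4 arrays (0.0661) and the mother as a replicate block (0.105), and 2, both probes of Rpl39l, with every probe separately. It was also 0 with plain symbols only, a rule that leaves out Rpl39l, and 0 to 1 with 1 line left out. In these settings with all 4 lines, limma gave 1 or 2 members lower and 0 to 2 higher at an unadjusted p under 0.05. With plain symbols it gave 0 of either. With an intensity trend and a robust prior the adjusted count stayed 1. At an unadjusted p under 0.05 limma then gave 10 members higher and 1 lower, against 2942 and 2724 of all 21639 genes. Over all genes the count of 399 was 0 with probes above background on all 4 arrays, 0 with the mother as a block (smallest adjusted p 0.0790) and 0 to 743 with 1 line left out: 743 without KO replicate 1 and 0 without any of the other three.

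The members' median of 0.16 was -0.0055 under quantile scaling, -0.0076 with the deposited values and 0.33 under median centring; the other 12 alternatives moved it by less than 0.087, the SD between the mothers' pairs. Among these it was 0.092 without KO replicate 2, where the median of all genes was 0.083, and 0.23 without KO replicate 1. Leaving out Rps4l, chosen after seeing the data, gave 0.16. Within mother 1046 the median was -0.023, -0.019 and 0.27 under quantile scaling, the deposited values and median centring, and within mother 875 it was 0.017, 0.021 and 0.39. KO 2 minus KO 1 was 0.033 under quantile scaling and 0.036 with the deposited values. These scalings differ by construction in which signal range they hold equal. The scanner's own error estimate for member spots had a median of 10% of the signal, which was also its lowest value, and was at most 25.1%.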

Other observations

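A few members had a second probe that read far lower than the first, with values of its own. The dim probe of Rps25 read 10.48 in WT 1, 10.26 in WT 2, 9.50 in KO 1 and 10.17 in KO 2 (log2 signal), a difference of -0.53 (SE 0.28 in the fit of single probes), where the bright one had 0.15; this gap of 0.68 was the largest among the 30 genes with several probes. The dim probe of Rps15a had a difference of 0.44 against 0.17 for the bright one, and those of Rpl37 had 0.28 and 0.22. These genes were picked after their values were seen.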
